A study of Homo sapiens with 6 samples.

Results

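The metallothionein genes measured here were MT2A, MT3 and the MT1 genes MT1B, MT1E, MT1F, MT1G, MT1H, MT1M and MT1X. A probe was a member when the platform annotation gave it the symbol of 1 of 10 listed metallothionein genes. This gave 9 probes, 1 for each of 9 genes, out of 16225 genes with a probe and 47289 probes with values. MT1A had no probe by this rule and was not analysed here. The arrays held total RNA of A2058 cells, a human melanoma cell line grown in DMEM with fetal bovine serum. The cells had been treated for 48 h with CT16 siRNA (named siRNA1 in the methods) or with control siRNA, and CT16 is the protein of the cancer-testis gene PAGE5. There were 3 arrays per group, and each array held the RNA of a separate culture. All 6 cultures received an siRNA, and an untreated group was not analysed here. With 1 siRNA against CT16, an effect of losing CT16 and an effect of that siRNA on other RNAs cannot be told apart.

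Metallothioneins are small proteins in which cysteines make up a large share of the residues, and these cysteines hold zinc, copper and toxic metals such as cadmium. Their transcription is induced by metals through the zinc-sensing factor MTF1, which binds metal response elements upstream of the genes. Glucocorticoids and oxidative stress induce them as well. MT2A and the MT1 genes are made in many tissues, while MT3 is known mainly from the brain.

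The genes lie in 1 cluster on human chromosome 16. In the RefSeq annotation of GRCh38.p14 their order is MT3, MT2A, MT1E, MT1M, MT1A, MT1B, MT1F, MT1G, MT1H and MT1X. RefSeq promoters of that build were on hand for 4 of the 10 genes, namely MT2A, MT1B, MT1H and MT1X. The 250 bases before the transcription start are shown for the 3 of these whose RNA was above background on the arrays, because the elements through which metals act on the family lie there. Each is on the plus strand and is printed 5′ to 3′. The capitals mark matches to the core of the metal response element, written TGCACNC or TGCGCNC and searched on both strands, with overlaps allowed. The windows are chr16:56608334-56608583 for MT2A, chr16:56669564-56669813 for MT1H and chr16:56682220-56682469 for MT1X.
MT2A: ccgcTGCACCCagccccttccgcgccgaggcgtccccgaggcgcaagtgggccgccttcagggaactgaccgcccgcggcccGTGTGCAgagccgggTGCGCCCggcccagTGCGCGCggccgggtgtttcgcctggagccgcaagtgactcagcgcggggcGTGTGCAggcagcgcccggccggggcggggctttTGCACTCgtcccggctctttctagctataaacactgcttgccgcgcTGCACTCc
MT1H: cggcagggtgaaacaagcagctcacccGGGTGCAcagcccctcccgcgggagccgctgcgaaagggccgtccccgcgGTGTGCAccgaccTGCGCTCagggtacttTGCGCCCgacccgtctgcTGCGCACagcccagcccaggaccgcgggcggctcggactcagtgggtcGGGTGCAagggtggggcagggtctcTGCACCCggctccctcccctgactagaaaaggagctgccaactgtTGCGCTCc
MT1X: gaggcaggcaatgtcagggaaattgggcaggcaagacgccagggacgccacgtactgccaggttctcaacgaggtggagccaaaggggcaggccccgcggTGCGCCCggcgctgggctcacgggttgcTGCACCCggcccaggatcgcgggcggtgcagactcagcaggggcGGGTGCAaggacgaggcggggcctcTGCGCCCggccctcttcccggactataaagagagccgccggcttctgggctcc

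The MT2A window held 7 matches, 5 on the plus strand and 2 on the minus strand. The last of them ended 2 bases before the start. The MT1H window held 8 matches, 5 on the plus and 3 on the minus strand, and the MT1X window held 4, 3 on the plus and 1 on the minus strand. The MT1B window held 3. Of all 35116 RefSeq promoters searched in the same way, 24.8% held at least 1 match, 1.58% at least 3, 0.37% at least 4 and 0.0313% at least 7. MT1H, MT1X and MT1B shared a match that began 53 bases before the start, and in MT1H and MT1X a minus-strand match covered bases 78 to 72. The letters TATAAA were found in the MT2A, MT1B and MT1X windows, and in the MT1H window they were not. In pairwise alignments with gaps, the MT1H and MT1X windows were identical at 62.9% of alignment columns, against 55.2% for MT2A and MT1H and 55.3% for MT2A and MT1X. A match describes the letters only, and binding of MTF1 was not measured in these cultures.

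The transcripts of the family are close in sequence, so that a probe for 1 gene can also bind the RNA of another. The probe sequences were not used here, and how much of each signal came from a relative was not tested. Each value is therefore that of a probe named after a gene. The deposited signal was the brightness of a probe, and its detection value was the p-value against negative control beads. A probe was called above background on an array where the detection value was under 0.05.

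Across the 6 arrays, the median signal of all probes ranged from 164.4 to 190.6. On CT16 siRNA replicates 1, 2 and 3, 27.7%, 27.3% and 27.4% of the probes were above background. On the control replicates it was 23.9%, 25.4% and 26.6%, so every CT16 siRNA array had more. The part of this in the detection of single probes was not tested. On the first principal component, with 71.8% of the variance, the CT16 siRNA replicates lay at -37.53, -9.03 and 16.45 and the control replicates at 4.49, 21.13 and 4.49. CT16 siRNA replicate 1 thus stood apart from the other arrays. The PAGE5 probe was above background on 0 of 6 arrays, with signals from 151.7 to 194.8 and detection values from 0.178 to 0.815. The silencing could therefore not be checked on these arrays. The paper reports it for A2058 cells from separate mRNA measurements. Of the marker genes with a probe, 8 of 9 melanocyte, 0 of 4 keratinocyte, 0 of 4 immune, 3 of 6 fibroblast and 1 of 3 endothelial genes were above background on at least 3 arrays.

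Before normalization, the MT2A signal was 6831, 9784 and 11819 on the CT16 siRNA arrays (replicates 1, 2 and 3, as in all such lists). On the control siRNA arrays it was 10308, 16295 and 14498. CT16 siRNA replicate 3 lay above control replicate 1 at this stage, so the groups overlapped. After log2 transformation and quantile normalization, which gives all arrays the same distribution, MT2A was 12.94, 13.25 and 13.23 with CT16 siRNA and 13.61, 13.86 and 13.77 with control siRNA. All 3 CT16 siRNA arrays were then below all 3 control arrays.

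The mean log2 level of MT2A was 13.75 ± 0.13 in the control group and 13.14 ± 0.17 after CT16 siRNA (SD, n = 3 each). The log2 difference was -0.61 with a standard error of 0.12, a fold change of -1.52, where the minus sign stands for a lower level with CT16 siRNA. By rank product, the test named in the methods, which ranks the ratios of all pairs of arrays, MT2A passed as lower, with an FDR of 0.0169. By limma, with Benjamini-Hochberg adjustment over 12082 probes, it did not pass (adjusted p = 0.303). An exact two-sided permutation test over the arrays gave p = 0.1, the smallest value that 3 against 3 arrays allow. The study had selected MT2A on these same arrays together with a separate CT16 overexpression experiment in another melanoma line. It also measured MT2A by RT-PCR in the overexpressing cells. The direction of MT2A on the arrays used here is thus not independent evidence. In bulk RNA, fewer cells with a transcript and less of it per cell cannot be told apart.

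**Figure D1:**
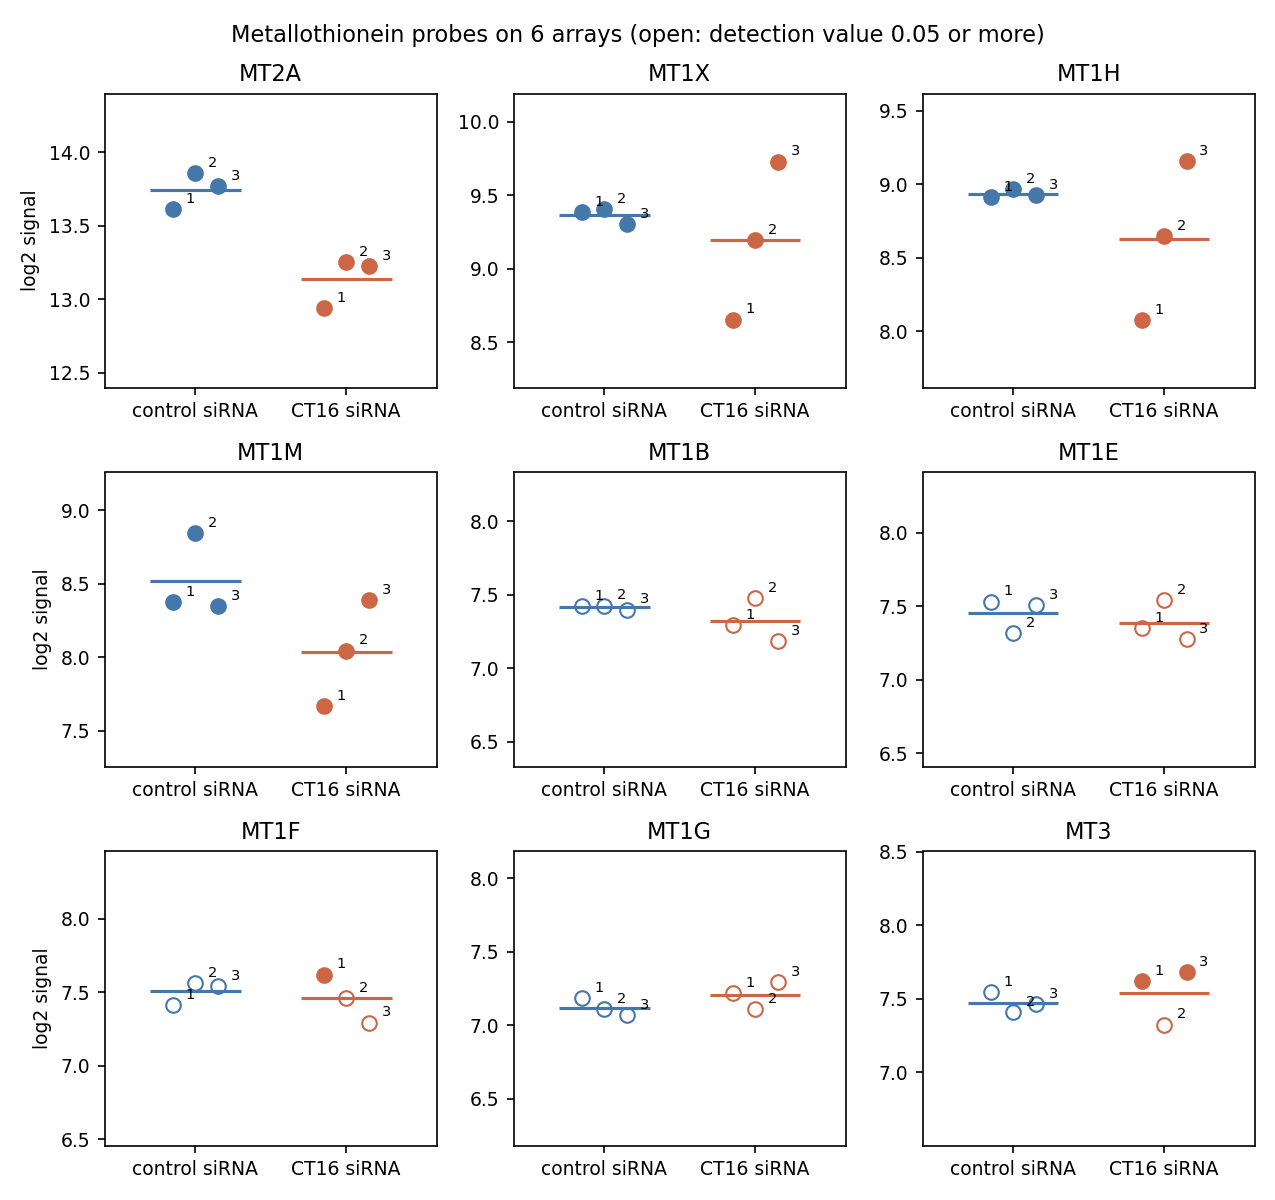
Normalized log2 signal (vertical axis, 1 panel per gene, each with its own range) of the 9 metallothionein probes on the 3 control siRNA and 3 CT16 siRNA arrays. Each point is an array with its replicate number, filled where the probe was above background, and each line is a group mean. The groups are separate for MT2A (12.94 to 13.25 with CT16 siRNA against 13.61 to 13.86), they overlap for MT1M, MT1H and MT1X, and most points of the 5 dim probes are open.

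MT1X, MT1H and MT1M were the MT1 genes above background on all 6 arrays. MT1M was 7.67, 8.04 and 8.39 on the log2 scale with CT16 siRNA and 8.37, 8.85 and 8.35 with control siRNA. Only CT16 siRNA replicate 3 reached into the control range. The difference of the means, 8.03 ± 0.36 against 8.52 ± 0.28 (SD, n = 3 each), was -0.49 with a standard error of 0.21. It did not pass by limma (adjusted p = 0.521) or by rank product (FDR 0.0947).

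MT1H was 8.08, 8.65 and 9.16 with CT16 siRNA and 8.91, 8.96 and 8.93 with control siRNA. The CT16 siRNA arrays spread over both sides of the narrow control range, with SDs of 0.54 and 0.03. The log2 difference was -0.31 with a standard error of 0.24, which did not pass (limma adjusted p = 0.651, rank product FDR 0.468). MT1X was 8.65, 9.19 and 9.73 with CT16 siRNA and 9.39, 9.41 and 9.30 with control siRNA, again with a wide CT16 siRNA group (SD 0.54) around a narrow control group (SD 0.05). Its log2 difference was -0.17 with a standard error of 0.24 (limma adjusted p = 0.804, rank product FDR 0.885). Exact two-sided permutation p-values were 0.3 for MT1M, 0.4 for MT1H and 0.7 for MT1X.

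The 4 probes were read against all probes above background. By limma, 0 of the 4 passed at an adjusted p of 0.05, as did 0 of 12082 probes in all (0%), and at an unadjusted p under 0.05 in the lower direction 1 of the 4 passed (MT2A), against 625 probes in all (5.17%, and 9.57% in either direction). By rank product, 1 of the 4 passed as lower, against 103 probes in all (0.853% of the 12082, and 0.218% of all 47289 probes), and 0 of the 4 as higher, against 0.795% of the 12082. Arrays that did not overlap, with CT16 siRNA lower, were found for 1 of the 4 and for 8.95% of the 12082, and with CT16 siRNA higher for 0 of the 4 and 7.39%. A log2 difference at or below -0.5 was found for 1 of the 4 and 1.2% of all, and one at or below that of MT2A for 59 probes in all (0.488%). All 4 differences were below 0, against 49.9% of the 12082 probes. The median of the 4 was -0.40, and that of the 12082 was 0.000344.

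The melanocyte marker list was read on the same arrays. By rank product, 3 of its 8 genes above background passed as lower, against 0.943% of all 8909 genes above background. As higher, 0 passed, against 0.786%. An unadjusted limma p under 0.05 was found for 4, against 10.4%. For 4, all CT16 siRNA arrays were below the control arrays, against 9.77%. The median log2 difference was -0.30. The genes that passed by rank product were SLC45A2, a melanosome transporter (-0.63, FDR 0.008), and EDNRB, an endothelin receptor (-0.62, FDR 0.0106), and also TYR. TYR is tyrosinase, the enzyme that starts melanin synthesis (-0.50, FDR 0.04). Of the 8 genes, 5 were below 0 and 3 above it, namely MITF (0.21), S100B (0.03) and TYRP1 (0.01). The melanocyte marker MLANA was above background on 1 of 6 arrays. Of the fibroblast and endothelial markers above background, 0 passed in either direction. The median log2 difference of the 3 fibroblast genes was 0.19. For 1 of them all CT16 siRNA arrays were above the control arrays, against 7.31% of all genes. The 1 endothelial gene was at 0.26, and it was above background on only 3 arrays, the fewest the filter allows. The part of these markers in the metallothionein differences was not tested.

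The members differed in how their CT16 siRNA arrays lay about the control mean. In CT16 siRNA replicate 1, the distances were -0.81 for MT2A, -0.85 for MT1M, -0.86 for MT1H and -0.71 for MT1X on the log2 scale. In CT16 siRNA replicate 2 they were -0.49, -0.48, -0.28 and -0.17 for the same genes in that order. In CT16 siRNA replicate 3 they were -0.52, -0.13, 0.22 and 0.36. Replicate 1 was thus the lowest of the 6 arrays for all 4 probes, while in replicate 3 MT1H and MT1X were above the control mean and MT2A was still below it. On replicate 1, 496 of the 12082 probes (4.11%) lay at or below -0.7 from the control mean. This is the array that stood apart on the first principal component, and the part of that in the differences was not tested. Without it, MT2A was at -0.50 (limma adjusted p = 0.250), MT1M at -0.30, MT1H at -0.03 and MT1X at 0.10.

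**Figure D2:**
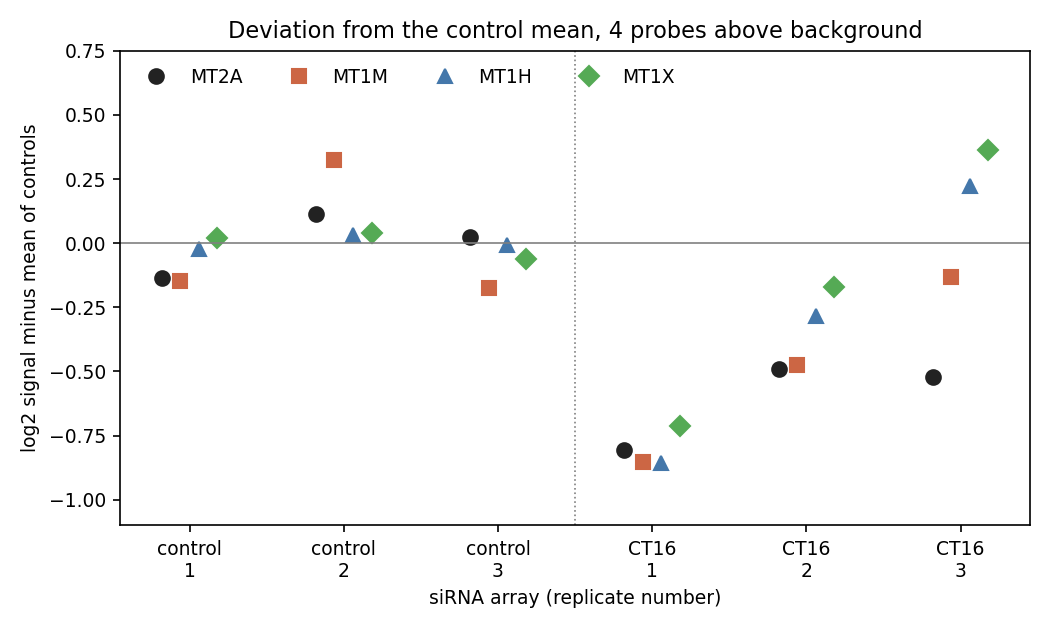
Log2 signal minus the mean of the control arrays (vertical axis) on each of the 6 arrays, with 1 symbol per gene for the 4 metallothionein probes above background. In CT16 siRNA replicate 1 all 4 probes lie between -0.86 and -0.71, and in replicate 3 they run from -0.52 for MT2A to 0.36 for MT1X.

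Of the MT1 probes, MT1H and MT1X followed each other most closely from array to array. Over the 6 arrays their correlation was r = 0.979 (exact permutation p = 0.00417, adjusted over 3 pairs 0.0125) and rho = 0.943 (exact permutation p = 0.0167, adjusted 0.025). It was r = 0.974 without the 2 arrays farthest from the median of MT1H, CT16 siRNA replicates 1 and 2. In each pair here, the gene named first set which arrays were left out. For MT1X, CT16 siRNA replicate 3 lay farther from its median than replicate 2. On the arrays left, CT16 siRNA replicate 3 (9.16 for MT1H and 9.73 for MT1X) lay above the narrow control ranges. Within the groups, after their means were removed, r was 0.996. The SDs there were 0.54 for both genes with CT16 siRNA, against 0.03 and 0.05 with control siRNA. This relation too thus rested mainly on the spread of the CT16 siRNA arrays. For MT1H and MT1M r was 0.838 (exact permutation p = 0.0431, adjusted 0.0646) and rho was 0.886 (exact permutation p = 0.0333, adjusted 0.0333), but r was -0.0932 without the 2 farthest arrays, so this relation rested on those arrays. For MT1M and MT1X r was 0.768 (exact permutation p = 0.0694, adjusted 0.0694) and rho was 0.943 (exact permutation p = 0.0167, adjusted 0.025), with r = 0.678 without the 2 farthest arrays. These probes shared the arrays and may share RNA of close relatives, which was not tested. The arrays also shared a first principal component with 71.8% of the variance. On it the CT16 siRNA replicates lay in the same order as for these probes. The permutation p-values take the arrays as exchangeable, so they do not show a relation particular to these pairs. How common such correlations were among all probes was not tested. MT2A was left out here because its groups formed separate clusters.

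Differences between the members in their response were compared within each array. The MT1X change minus the MT2A change was 0.43 on the log2 scale (exact two-sided permutation p = 0.2, adjusted over 6 pairs 0.4), and that of MT1H minus MT2A was 0.30 (p = 0.3 by the same exact test, adjusted 0.45). The signal of MT1H minus that of MT1X was -0.58, -0.55 and -0.57 with CT16 siRNA and -0.47, -0.44 and -0.38 with control siRNA on the log2 scale. These within-array values did not overlap between the groups, and their difference of -0.13 gave the smallest p the exact test allows (0.1, adjusted 0.4). None of the 6 pairs passed, and with 3 arrays per group none could.

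The other 5 probes were at or near the level of the negative controls. MT1B had signals from 147.3 to 190.1 with detection values from 0.186 to 0.900, MT1E from 156.4 to 205.2 (0.0883 to 0.749) and MT1G from 127.2 to 159.5 (0.719 to 0.984). These 3 were above background on 0 of 6 arrays. MT1F was above background on 1 array, CT16 siRNA replicate 1, with signals from 158 to 202.6 over the 6 arrays. Before normalization, the MT3 signals were 202.1, 152.6 and 202.2 on the CT16 siRNA arrays and 207, 167.4 and 168.5 on the control arrays. It was above background on 2 arrays, CT16 siRNA replicates 1 and 3 (detection values 0.0198 and 0.00791), and its highest signal before normalization was that of a control array (detection value 0.103). No fold change is given for these 5 probes, and a change in them was not detectable at this signal. MT4, which was not on the list, was above background on 0 of 6 arrays.

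The call of MT2A by rank product was lost under some settings. Its FDR was 0.599 with a normexp background correction that takes the negative controls from the detection values (neqc), 0.0912 with ranks over the probes above background alone, and 0.112, 0.393 and 0.3 without control siRNA replicates 1, 2 and 3. Without CT16 siRNA replicate 3, limma passed MT2A (log2 difference -0.64, adjusted p = 0.0489) as 1 of 313 among the 12082 probes. Rank product then passed MT2A, MT1M and MT1H as lower, along with many others. In all it passed 484 of the 47289 probes as lower there, against 103 with all arrays. The log2 difference of MT2A itself stayed between -0.69 and -0.50 over the arrays left out, with neqc (-0.62), with a median shift (-0.51) and with the authors' normalized values (-0.61). With neqc the difference of MT1M was -1.05 (limma adjusted p = 0.542), that of MT1H -0.54 and that of MT1X -0.26. Without CT16 siRNA replicate 3, MT1H was at -0.57 and MT1X at -0.44.

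**Figure D3:**
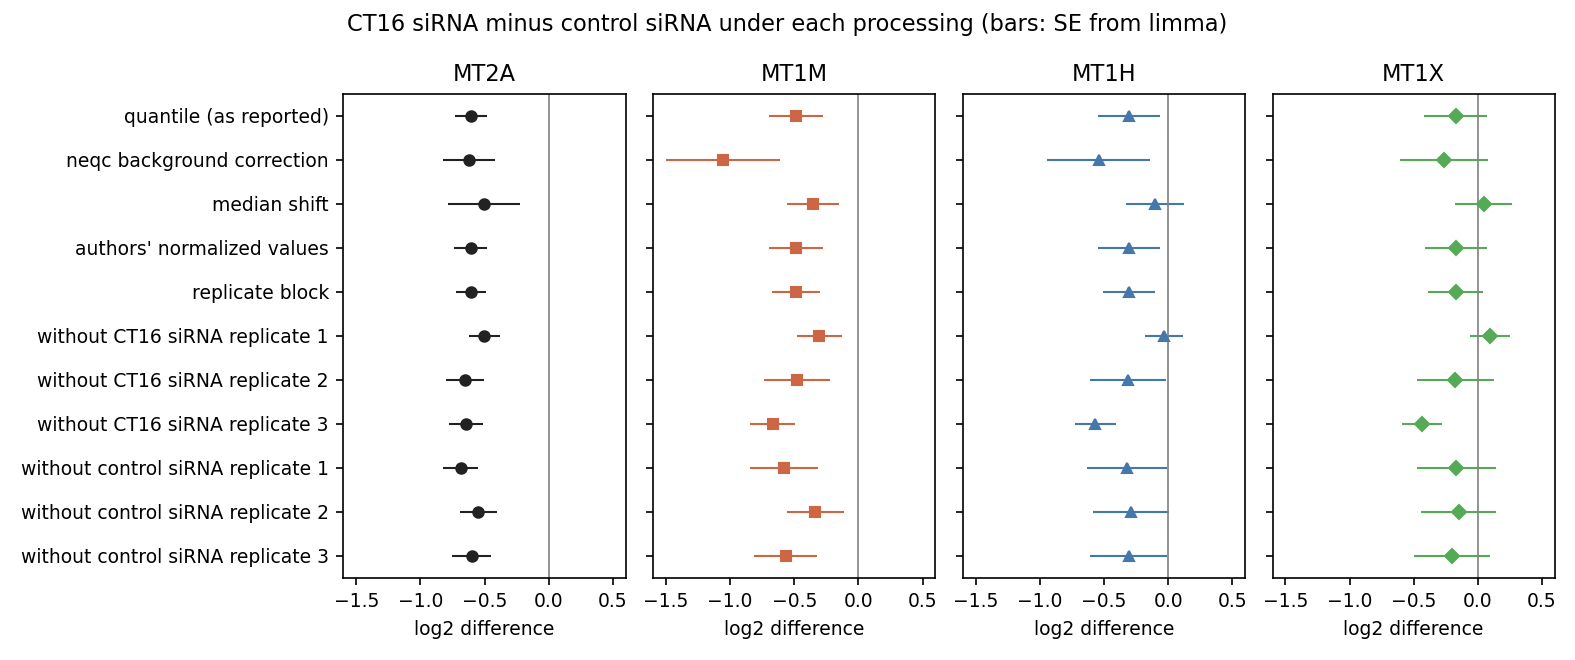
Log2 difference, CT16 siRNA minus control siRNA (horizontal axis, bars ± SE from limma), of MT2A, MT1M, MT1H and MT1X under 11 ways of processing or array sets. MT2A stays below 0 in each, MT1M reaches -1.05 with neqc, and MT1X crosses 0 with the median shift (0.05) and without CT16 siRNA replicate 1 (0.10).

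The genes that flank the cluster were measured too. BBS2, on the MT3 side, had a log2 difference of 0.10 with a standard error of 0.13 (limma adjusted p = 0.780). NUP93, a nuclear pore gene on the MT1X side, was at -0.12 with a standard error of 0.12 (adjusted p = 0.725). Neither passed, and both were above background on all 6 arrays.

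Genes of metal, redox and glucocorticoid biology were described by lists, with the probe of highest mean signal for each gene. In all, 8909 genes were above background, of which 0.786% passed by rank product as higher and 0.943% as lower, and limma passed 0 (10.4% at an unadjusted p under 0.05). For 9.77% of these genes all CT16 siRNA arrays were below the control arrays, and for 7.31% all were above. Their median log2 difference was -0.0013.

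Of the zinc transporters, 15 of 23 genes with a probe were above background. In this list 0 passed as higher and 1 as lower by rank product, and the median was -0.18. All CT16 siRNA arrays were below the control arrays for 6 of the 15 and above them for 1, and 3 had an unadjusted limma p under 0.05. The gene that passed was SLC39A3, an importer of zinc at the plasma membrane, at 10.34, 10.62 and 10.76 with CT16 siRNA and 11.14, 11.24 and 11.02 with control siRNA, without overlap. Its log2 difference was -0.56 with a standard error of 0.13 (FDR 0.0326, limma adjusted p = 0.359). SLC30A1, which exports zinc and is itself a target of MTF1, is named here after its values were seen. It was 7.70, 7.69 and 7.78 with CT16 siRNA and 7.45, 7.40 and 7.54 with control siRNA, with all CT16 siRNA arrays above the controls, the opposite side to MT2A. It was above background on 3 of 3 CT16 siRNA arrays and 0 of 3 control arrays, so that its control level is only a bound. Its measured log2 difference was 0.26, which did not pass (limma adjusted p = 0.481, rank product FDR 0.453), and 0.89 with neqc. It passed the filter through the CT16 siRNA arrays alone, so its values are not support for a change. It is the 1 gene counted above the controls in this list.

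Of the genes of metal response and copper handling, 16 of 19 were above background, with 1 higher and 0 lower by rank product and a median of -0.09. The higher gene was TFRC, the transferrin receptor that takes up iron, with a log2 difference of 0.92 and a standard error of 0.36 (FDR 0.00375). It was 11.56, 10.97 and 10.09 with CT16 siRNA and 10.17, 9.52 and 10.16 with control siRNA, so the groups overlapped through CT16 siRNA replicate 3. MTF1, also named after its values were seen, was at 0.14 with a standard error of 0.12 (limma adjusted p = 0.668). It was at 0.41 with neqc and 0.24 with the median shift. Leaving out CT16 siRNA replicate 1 put MTF1 at 0.06 and TFRC at 0.59, and leaving out the third CT16 siRNA array put MTF1 at 0.24.

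Of the glutathione genes and targets of the oxidative stress factor NRF2, 23 of 24 were above background, with 1 higher and 0 lower and a median of -0.09. TXN, the redox protein thioredoxin, was the one that passed, at 0.70 with a standard error of 0.30 (FDR 0.0328). All 15 heat shock genes with a probe were above background, with 2 higher and 0 lower and a median of 0.05. They were the chaperone genes HSP90AA1, at 0.97 with a standard error of 0.42 (FDR 0.00167), and HSPH1, at 0.71 with a standard error of 0.36 (FDR 0.0338). For TXN, HSP90AA1 and HSPH1, the highest value was that of CT16 siRNA replicate 1, and the groups overlapped. Without that array they were at 0.46, 0.54 and 0.35 in this order. HSPH1 was at 1.09 without CT16 siRNA replicate 3.

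Of the glucocorticoid targets, 12 of 14 were above background, with 2 higher and 1 lower by rank product and a median of 0.09. GLUL, glutamine synthetase, was below all controls on 3 of 3 arrays, with a difference of -0.65 and a standard error of 0.10 (FDR 0.00333, limma adjusted p = 0.222). CEBPD, a transcription factor of the C/EBP family, was above all controls on 3 of 3 arrays, at 0.76 with a standard error of 0.12 (FDR 0.00333, limma adjusted p = 0.223). ANXA1, annexin A1, was at 0.85 with a standard error of 0.29 (FDR 0.0065), with overlap between the groups, and at 0.54 without CT16 siRNA replicate 1. The 3 genes of this list that passed thus lay on both sides of 0. Over the 5 lists, 8 of 81 genes passed by rank product, 6 higher and 2 lower, against 0.786% and 0.943% of the 8909 genes. An unadjusted limma p under 0.05 was found for 16 of the 81, against 10.4%. The groups did not overlap for 17 genes with CT16 siRNA lower (9.77% of all) and 4 with CT16 siRNA higher (7.31%). The heat shock gene CRYAB, named here after its values were seen, and SLC30A1 are in these counts. Each was above background on only 3 of the 6 arrays, the fewest the filter allows. These were the control arrays for CRYAB and the CT16 siRNA arrays for SLC30A1, the group where each was higher. Their lack of overlap was thus nearly given by the filter, and their place in these counts is not support for a change. Leaving out CT16 siRNA replicate 1 brought the count by rank product to 2, leaving out the second CT16 siRNA array brought it to 1, and leaving out control replicate 2 brought it to 5.

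**Figure D4:**
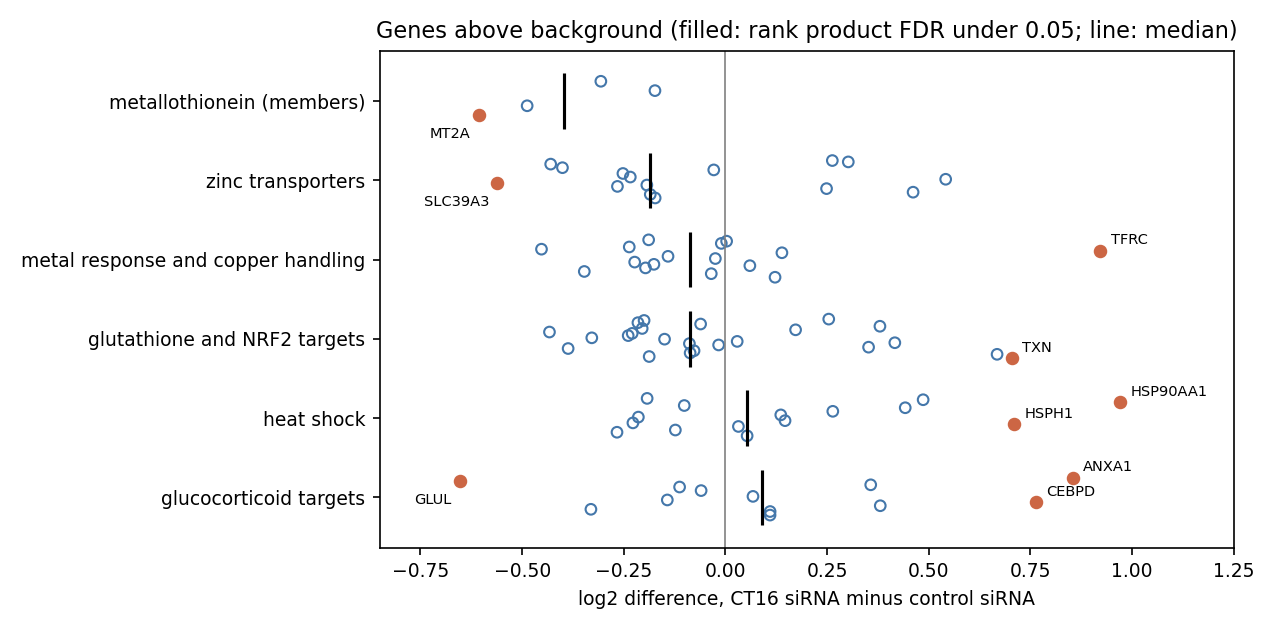
Log2 difference, CT16 siRNA minus control siRNA (horizontal axis), of each gene above background in the metallothionein list and 5 related lists. Each circle is a gene, spread vertically for legibility, filled and named where it passed by rank product, and each line is a list median. The 4 metallothionein points lie from -0.61 to -0.17, and the medians of the other lists lie from -0.18 to 0.09.

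The probes most like MT2A over the 6 arrays, by Pearson correlation of log2 signal and among named probes above background, were those of SKP2 (r = 0.991), BIRC5 (0.991), PHF19 (0.989), UCKL1 (0.988) and C6orf136 (0.988). SKP2 is a subunit of a ubiquitin ligase of the cell cycle, BIRC5 is survivin and UCKL1 is related to uridine kinases. These points share 2 groups of 3 arrays, and 130 of the 12078 other probes had a correlation above 0.95 with MT2A. In each of the 5, all CT16 siRNA arrays were below all control arrays, as were those of 8.95% of the 12082 probes. The 5 were picked for likeness to MT2A, whose groups do not overlap, so this was nearly given by the choice. The log2 differences were -0.53 for SKP2 (-0.21 for its other probe above background), -0.51 for BIRC5, -0.30 for PHF19, -0.69 for UCKL1 and -0.83 for C6orf136.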

How the data were processed

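Total RNA of A2058 cells was measured on Illumina Sentrix Human-6 Expression BeadChips, 1 colour and 1 sample per array, with 3 arrays per group by the labels. The values the authors deposited were a linear intensity per probe, before normalization. Each came with a detection p-value, also deposited, which sets the probe against negative control beads. A deposited table of quantile-normalized intensity served as an alternative. The sources used here do not say how beads were summarised, whether background was subtracted or which genome build was used. Of 47296 probes, 7 were empty. The platform annotation named 18468 probes (16225 genes), and 28821 were unnamed.

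The log2 of the non-normalized intensity was quantile-normalized. Limma 3.58.1 in R 4.3.3 (lmFit, eBayes, Benjamini-Hochberg) was fitted to 12082 probes, those above background (detection value under 0.05) on 3 or more of the 6 arrays, and every adjusted p of a single probe is limma's. The rank product used 9 pairwise log2 ratios over all probes, 100 permutations of each array and a set seed, at an FDR of 0.05. It was written anew, and the RankProd package was not used. Both were also run on simulated data with known changes and independent noise for each probe. The arrays here share a component with 71.8% of the variance, so the simulation does not measure the error of these calls. Alternatives were neqc (offset 16), a median shift, the authors' values, omitting the filter, requiring detection values under 0.01 on all 6 arrays (8046 probes), a trended robust fit, a block for the replicate number, leaving out each array, rank product on probes above background, and another seed. The number of arrays limits the precision.

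The text names every metallothionein probe, PAGE5, each list or marker gene past a threshold, the 5 probes most like MT2A and the genes flanking the cluster. The members and lists were chosen with earlier results of these data known. Promoters came from RefSeq (GRCh38.p14). Plots were made in Python 3.11.15 with matplotlib 3.10.9.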

Additional observations from a re-analysis of the deposited data

How the results depend on the processing

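The log2 difference of MT2A kept its direction under every alternative, from -0.69 to -0.50 when 1 array was left out. Limma passed 0 metallothionein probes, with 1 at an unadjusted p under 0.05, and it passed 0 to 1 with 1 array left out. The 1 was MT2A without CT16 siRNA replicate 3. Rank product passed 1 metallothionein probe, 0 with neqc or on probes above background alone, and 0 to 3 with 1 array left out. The MT2A FDR was 0.0350 with the median shift, 0.0164 with the authors' values and 0.0140 with another seed. The median of the metallothionein probes was -0.58 with neqc, -0.23 with the median shift, and -0.61 to -0.17 with 1 array left out. MT1X was at 0.046 with the median shift and from -0.44 to 0.098 with 1 array left out, and NUP93 at 0.034 with the median shift, which moved the median of all probes to 0.10. In the 5 related lists, 8 genes passed by rank product, 1 with neqc, 5 on probes above background alone, and 1 to 11 with 1 array left out. Among all probes, 96 passed as higher and 103 as lower, against 57 and 11 with neqc, 99 and 39 with the median shift, and 24 and 46 on probes above background alone. Limma passed 10 probes without CT16 siRNA replicate 1 and 313 without replicate 3. Without replicate 3, rank product passed 72 probes as higher and 484 as lower. SKP2 and PHF19 were at -0.93 and -0.56 with neqc and at -0.35 and -0.11 with the median shift. BBS2 was at 0.29 with the median shift. The cause of these shifts was not tested. Recomputing the other named genes and list medians under these settings was chosen after seeing the data.

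No consistent pairing of the arrays by replicate number was seen, though 3 arrays per group are too few to exclude it. Deviations of same-numbered arrays correlated at 0.423, 0.0211 and -0.41, and 0 of 3 arrays correlated best with their own number. With the replicate number as a block, MT2A was at -0.61 (limma adjusted p = 0.485, rank product FDR 0.0158), limma passed 0 probes (1069 at an unadjusted p under 0.05), and rank product passed 47 higher and 102 lower. The slide as a block was not run, because the columns name no slide, and 1 probe per gene changed nothing, since each member has 1 probe. At the signal of the dim probes (MT1B, MT1E, MT1F, MT1G, MT3), a change could not be measured.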
